A study of Homo sapiens with 40 samples.

Results

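The 77 genes for the proteins of the cytosolic ribosome were followed in HepaRG cells by RNA sequencing. Membership went by name alone, out of 56568 gene names. It took RPSA, RPLP0, RPLP1, RPLP2, and every gene called RPL or RPS with a number and at most 1 trailing A or X. The set as such was chosen with earlier results of these data known. It comprised 46 genes of the large and 31 of the small subunit. HepaRG is a human hepatic line from a liver tumour that differentiates into a mixture of hepatocyte-like and biliary-like cells. The differentiated cells (HPR 116) were exposed from day 8 to day 14 in a medium that held 2% serum and 1% DMSO, which the controls received too. There were 8 groups with 5 libraries in each. Besides the solvent control these received PCB 126 (100 pM, 10 nM or 1 µM), glyphosate (10 µg/L, 1 mg/L or 0.1 g/L) or, at 10 µg/L, the glyphosate-based herbicide Roundup (Grand Travaux +). All 40 libraries came from 1 cell line and nothing in the labels says whether the 5 of a group were separate cultures, so that every p-value measures the spread between libraries, which may be technical. The labelled cell type was checked against its markers, with the hepatocyte transcript ALB at 2922 to 17154 FPKM (fragments per length of transcript, scaled to library size), and the biliary transcript KRT19 at 97.9 to 407 FPKM, whereas EPCAM lay between 0 and 0.0738 FPKM. Other markers were low too, the biliary or progenitor transcripts KRT7 at 0.153 to 1.51 and CDH6 at 0.0776 to 3.50 FPKM. The hepatocyte enzyme CYP3A4 lay between 1.11 and 6.95 FPKM.

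The ribosome translates mRNA with a small subunit, which reads the message, and a large subunit, which joins amino acids. Most of their proteins are needed in equal numbers, and unused copies are degraded. In vertebrates most of these mRNAs start with a C followed by a run of pyrimidines, the terminal oligopyrimidine (TOP) tract, through which LARP1 and the kinase complex mTORC1 govern their translation and storage. In hepatocytes, which secrete most plasma proteins, they are among the most abundant mRNAs. PCB 126 is a dioxin-like biphenyl that activates the aryl hydrocarbon receptor, glyphosate is a herbicide that blocks a plant enzyme, and Roundup contains glyphosate together with other formulation ingredients.

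The TOP tract was read from RefSeq sequences around gene starts (assembly GRCh38.p14), in which 62 of the 77 genes had an entry. A start at C with at least 4 more C or T after it was found for 46 of these 62 genes (74.2%), against 1404 of 27305 genes with an entry (5.1%). Among those 46 genes the tract had a median length of 8 bases and reached 19. The following starts are shown because they belong to genes whose values are described below; each line gives 10 bases before the start and 20 from it on, 5′ to 3′ on the coding strand, with the tract in capitals.
RPLP0: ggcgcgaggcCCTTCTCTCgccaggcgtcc
RPL13A: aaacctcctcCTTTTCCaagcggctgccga
RPS6: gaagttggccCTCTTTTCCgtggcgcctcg
RPSA: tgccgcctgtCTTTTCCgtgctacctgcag
RPL14: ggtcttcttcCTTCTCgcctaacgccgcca
RPL7A: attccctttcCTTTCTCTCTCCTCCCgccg
RPL21: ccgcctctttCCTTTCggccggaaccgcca
RPL3: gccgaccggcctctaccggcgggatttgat
RPS4X: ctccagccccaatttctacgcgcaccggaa
RPS29: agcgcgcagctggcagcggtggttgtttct
The annotated start of RPL3 opens with 4 pyrimidines only, and those of RPS4X and RPS29 begin with A and T, so that no capitals appear there. In the same assembly the lines for RPLP0, RPS6 and RPL7A lie at chr12:120201092-120201121 on the minus strand, chr9:19380217-19380246 on the minus strand and chr9:133348208-133348237 on the plus strand. A match to the letters is a description of an annotated start and not a measured one.

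The ribosomal protein mRNAs were abundant and short. Averaged over 40 libraries, their summed level was 11310 FPKM, 13 of the 77 genes were among the 100 highest of all genes and 67 among the 500 highest. The most abundant transcript of each had a median length of 756 bases, against 2558 bases over the 9732 genes with a variance above 1. The genes were spread over 21 chromosomes, with 12 on chromosome 19 and 4 on the X chromosome (RPL10, RPL36A, RPL39 and RPS4X), and 24 of their loci also held a named small nucleolar RNA gene.

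Levels differed widely between the genes. On the FPKM scale, which is per length, RPLP0, the anchor of the stalk that recruits elongation factors, was highest at 390 ± 114 FPKM (SD, n = 40 libraries). RPL13A followed at 365 ± 103, RPL3, which lies beside the peptidyl transferase centre, at 356 ± 96.5 and RPL19 at 307 ± 86.9 FPKM. The lowest were RPL21 at 1.26 ± 2.57, RPS26 at 13.2 ± 3.97, RPL37 at 20.3 ± 17.1, RPL27A at 26.2 ± 9.79 and RPL22 at 26.6 ± 7.91 FPKM. The first 3 of these ranks are uncertain. Pseudogenes, described below, held 148 FPKM for RPL21 and 34.1 for RPS26, and named RPL37 transcripts were 62.7% of their locus. For RPL27A and RPL22 pseudogenes held 0.0061 and 0.18 FPKM, and 99.3% and 100% of the locus was named. In all, 50 genes averaged above 100 FPKM, 19 between 50 and 100, and 8 under 50. The 2 acidic stalk proteins were close to each other, RPLP1 at 156 ± 39.6 and RPLP2 at 157 ± 38.2 FPKM, both below their anchor RPLP0. RPL5 and RPL11, which carry the 5S rRNA into the ribosome and can bind MDM2, stood at 195 ± 51.5 and 65.6 ± 22.3 FPKM. Among the small-subunit genes, RPS3 of the mRNA entry site lay at 206 ± 57.5, RPS4X at 217 ± 64.9, RPS19, the gene first linked to Diamond-Blackfan anaemia, at 147 ± 43.6, and RPS27A, whose product is made as a fusion to ubiquitin, at 91.9 ± 25.4 FPKM. RPL39 and RPL41, which encode very small proteins, stood at 183 ± 55.5 and 91.3 ± 28.5 FPKM, and RPS29 at 95.9 ± 24.9 FPKM.

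The genes rose and fell together from library to library. As a description over 40 libraries, which share their groups, runs and library totals, the Pearson r of a gene's log2(FPKM + 1) with the median of the other 76 had a median of 0.87, and 33 genes were above 0.9. The tightest were RPS7 (r = 0.98), RPL24 (0.98) and RPL8 (0.98), whose SD after subtraction of the library median was only 0.09, 0.08 and 0.10 on the log2 scale. The spread was largest for RPL4 (1.44), RPL29 (1.23) and RPL7A (1.20). Such co-variation was not particular to ribosomal genes: the median r of 9585 other genes with the ribosomal protein median was 0.77, and 1279 of them exceeded 0.9. The 3 most alike were COX6B1, a subunit of cytochrome c oxidase (r = 0.98), SSR2 of the translocon (0.97) and TXNDC12 of the endoplasmic reticulum (0.97). The small-subunit genes made up 43.2 ± 1.09% of the summed ribosomal protein FPKM (SD, n = 40), with extremes of 40.98% and 47.2%. Such a share cancels the library total, so its spread cannot be set against that of the level. By medians, the large minus the small subunit was -0.40 ± 0.21 on the log2 scale, from -1.23 to 0.01.

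**Figure D1:**
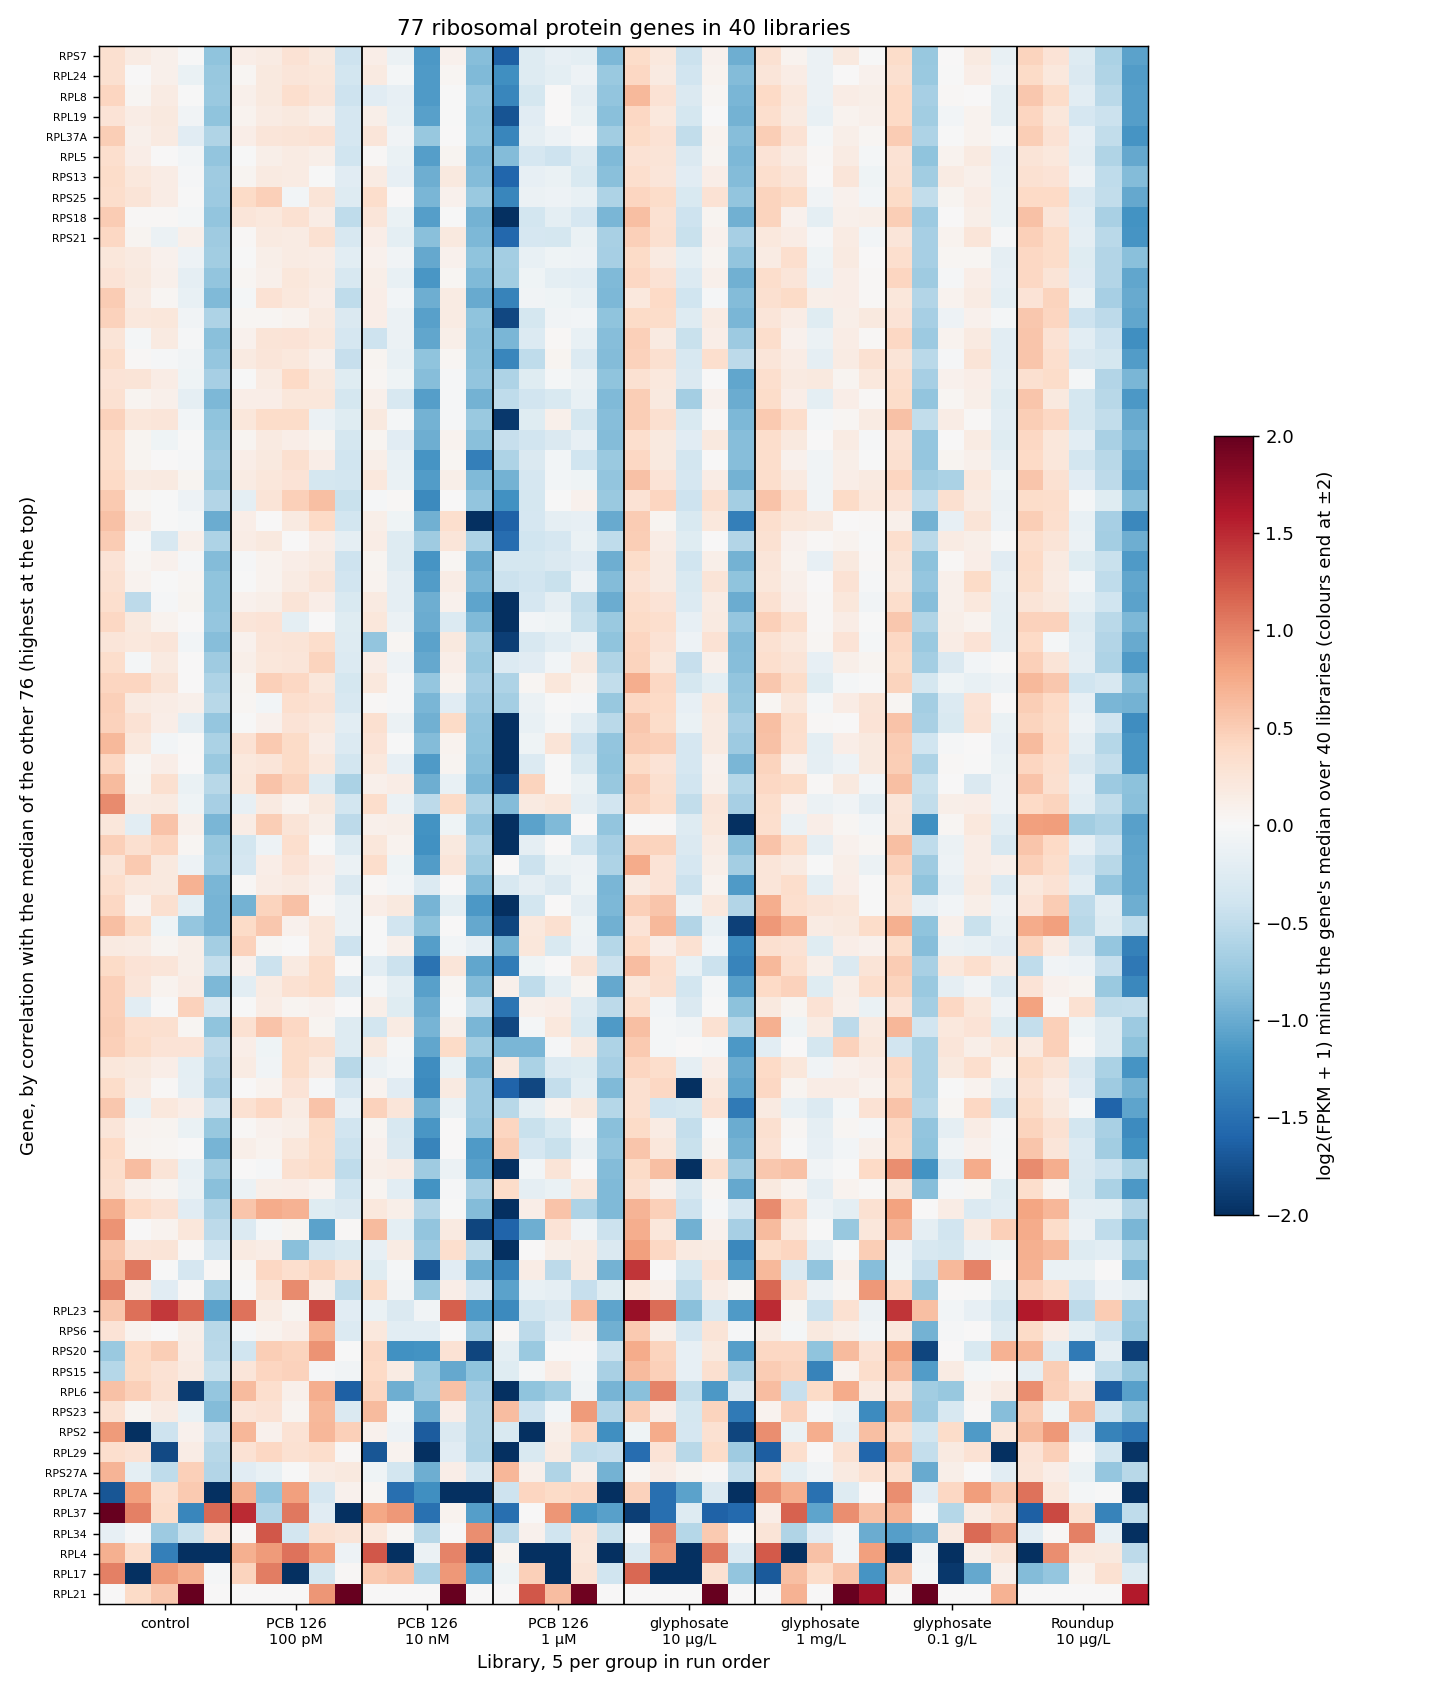
Level of each of the 77 genes (rows, ordered by their correlation with the median of the other 76) in 40 libraries (columns, 5 per group in run order), as log2(FPKM + 1) minus the gene's own median, with names beside the topmost and lowest rows. Whole columns are blue in the 5th library of control, PCB 126 10 nM, PCB 126 1 µM, glyphosate 10 µg/L and Roundup. The same holds for PCB 126 10 nM replicate 3, glyphosate 0.1 g/L replicate 2, glyphosate 10 µg/L replicate 3 and Roundup replicate 4. Most genes are also low in PCB 126 1 µM replicate 1, PCB 126 100 pM replicate 5 and Roundup replicate 3, where 10, 10 and 8 lay above their own median. The genes at the bottom (RPL21, RPL17, RPL4, RPL34, RPL37) do not follow the columns.

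The level differed strongly between libraries, within groups as well as between them. The median log2(FPKM + 1) of the 77 genes ran from 5.96 in PCB 126 1 µM replicate 1 to 7.72 in glyphosate 10 µg/L replicate 1, a 3.37-fold range, and averaged 7.10 ± 0.47 (SD, n = 40). In 6 libraries at least 70 of the 77 genes lay above their own 40-library median, and in 12 libraries at most 10 did. No ribosomal protein gene was above its own median in PCB 126 10 nM replicate 3 or PCB 126 1 µM replicate 5, whereas 73 were in glyphosate 1 mg/L replicate 1. Library numbers fall into 5 runs with 1 library of each group (a run here is only a stretch of numbers), and the 5th run was the lowest, at 6.63 ± 0.40 (SD, n = 8) against means of 7.05 to 7.34 in the others. Of the variance between libraries, 22.9% lay between groups and 30.2% between runs. These shares are not adjusted for the number of classes. Both would exceed 0 without any difference, and more so for 8 groups than for 5 runs, so they are not directly comparable.

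Other properties of the libraries moved with this level. Of the 10 libraries with the lowest ribosomal protein median, 9 were also among the 10 with the lowest total FPKM, 8 among the 10 with the fewest transcripts above 0, and 9 among the 10 with the lowest median over mitochondrial ribosomal protein genes. They came from 6 of the 8 groups, and 5 of them from the 5th run. Total FPKM ranged from 255292 to 513059 and transcripts above 0 from 71169 to 118592. As a share of total FPKM the ribosomal proteins ranged from 2.00% to 3.44%. That total includes 7 abundant structural and nuclear RNAs, which held from 14.5% to 34.3% of it and so move the share. After scaling each library to the 75th percentile of its genes, the range of the median shrank from 1.75 to 1.22 on the log2 scale, and the share of its variance between groups rose to 42.6%. The part of depth or RNA quality in these differences was not tested, and FPKM values hold no read counts from which to derive a counting error.

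**Figure D2:**
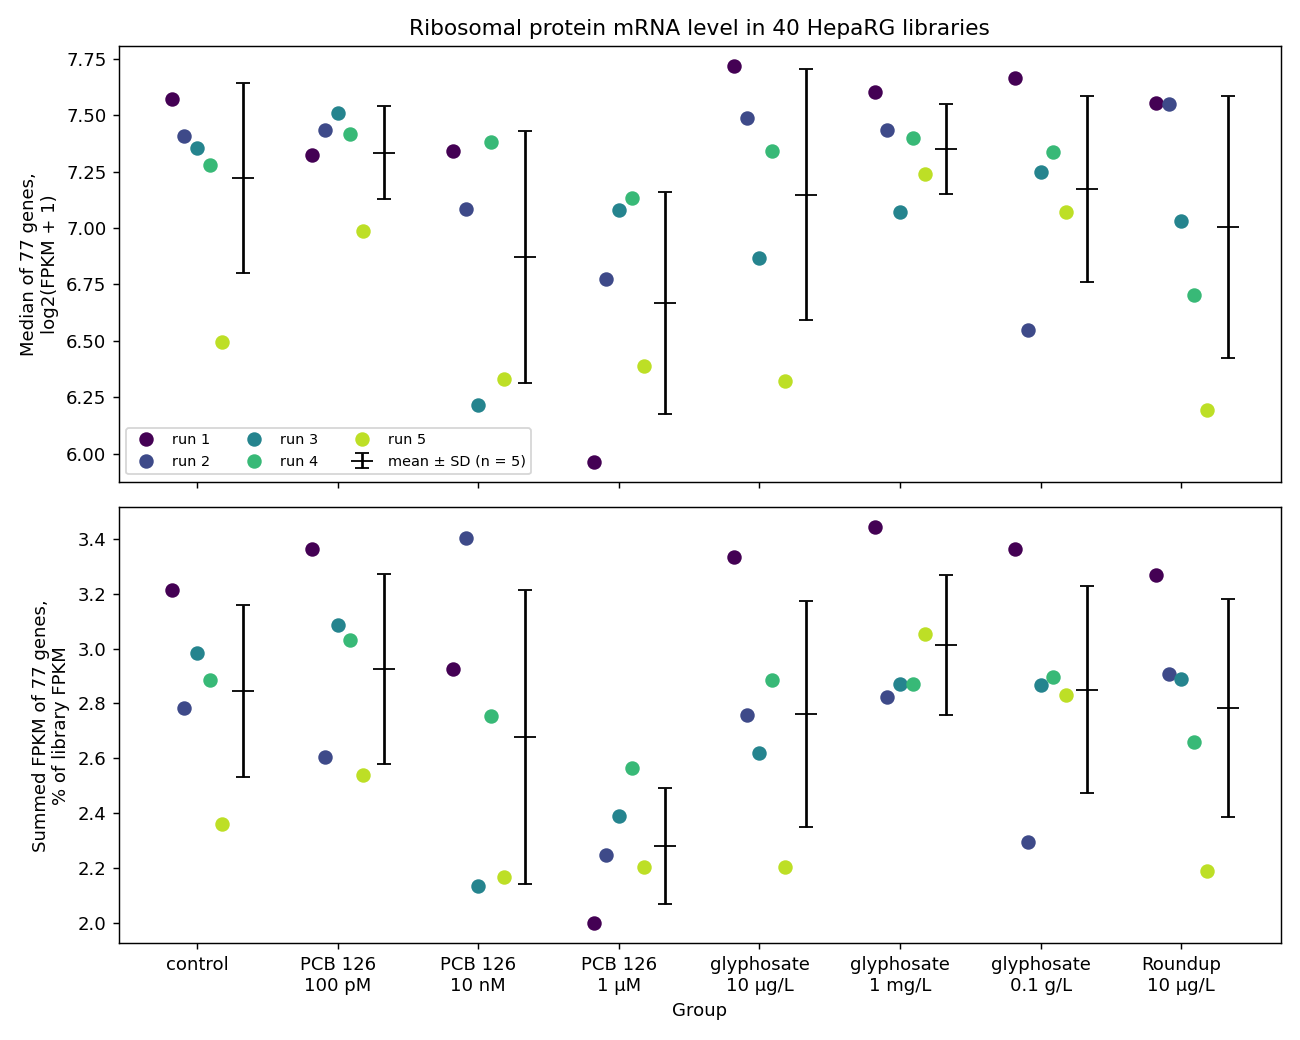
Upper panel, median log2(FPKM + 1) of the 77 genes in each library. Lower panel, their summed FPKM as a percentage of the library's FPKM. Points are libraries coloured by run, and bars are the group mean ± SD (n = 5). In both panels PCB 126 1 µM has the lowest mean, 6.67 and 2.28%, and its libraries overlap those of the control.

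The group means of the ribosomal protein median were 7.22 ± 0.42 in the control, 7.33 ± 0.20, 6.87 ± 0.56 and 6.67 ± 0.49 at 100 pM, 10 nM and 1 µM PCB 126, 7.15 ± 0.56, 7.35 ± 0.20 and 7.17 ± 0.41 for glyphosate from the lowest concentration to the highest, and 7.01 ± 0.58 with Roundup (SD, n = 5, log2 scale). When the groups are ranked by mean, neighbours differed by less than their spread. No group was free of overlap with the control.

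PCB 126 at 1 µM gave the lowest ribosomal protein levels, but no single gene passed the test. Cells exposed to the 3 concentrations were compared with the control to ask which transcripts respond to an aryl hydrocarbon receptor agonist. CYP1A1, the classical target of that receptor, lay between 0 and 7.69 FPKM in control libraries and between 85.2 and 389 FPKM at 1 µM. At 1 µM, 0 of 77 ribosomal protein genes passed limma's moderated test (Benjamini-Hochberg adjusted p under 0.05 over 9755 genes), when 1.87% of all genes did. At an unadjusted p under 0.05 there were 9 of 77, against 1322 of 9755 genes, and a plain linear model with a covariate for library size, taken from the FPKM themselves, called 0. Of the 77 log2 fold changes 74 were below 0 (96.1%), with a median of -0.46, and of all 9755 genes 7726 were (79.2%), with a median of -0.26. Below that median of all genes lay 64 of the 77, and the medians differed by -0.20. The 1 added before the logarithm shrinks the fold changes of low genes more. The library median averaged 7.10 for the 77 genes and 3.07 over 9732 genes (log2 scale), so their fold changes are not strictly comparable. After scaling to the 75th percentile the medians were -0.30 and -0.12. The share of total FPKM averaged 2.28 ± 0.211% at 1 µM and 2.85 ± 0.315% in the control (SD, n = 5), and it was lower than in the control library of the same run in 5 of 5 runs, with differences between -0.15 and -1.22 percentage points. Not one of the 77 genes separated the 5 exposed from the 5 control libraries, when 1.64% of all genes lay lower without overlap. The median 95% interval of a single gene ran from -1.08 to 0.18.

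RPL7, a large-subunit protein that binds the 28S rRNA, had the smallest p at 1 µM. Its FPKM were 245, 211, 193, 166 and 119 in the control libraries and 61.4, 53.0, 136, 164 and 102 in those at 1 µM, in run order. The value was lower than in the control of the same run in 5 of 5 runs, but the groups overlapped, since control replicate 5 lay below PCB 126 1 µM replicates 3 and 4. Its log2 fold change was -0.94 (SE 0.32), with a limma adjusted p of 0.15 and an unadjusted 2-sided exact permutation p of 0.0317. RPL7 was picked from these same libraries, and by the permutation test 1 of the 77 genes was under 0.05, so that p is no separate support. With libraries scaled to the 75th percentile the log2 fold change was -0.77 and passed limma's threshold (adjusted p = 0.0465), and with all transcripts of the locus summed it was -0.65 (limma adjusted p = 0.239).

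RPSA, a small-subunit protein that is also found as a laminin receptor, came next. Its FPKM were 101, 73.95, 129, 92.6 and 45.3 in the control libraries and 20.3, 40.3, 46.1, 86.8 and 49.5 at 1 µM, lower in 4 of 5 runs. The log2 fold change was -0.91 (SE 0.34, limma adjusted p = 0.216), and -0.47 when its locus was summed. RPL23, which lies near the factor-binding site, held 108, 160, 200, 166 and 34.8 FPKM in the control and 30.2, 57.3, 60.3, 115 and 35.1 FPKM at 1 µM. Its log2 fold change was -1.10 (SE 0.46, limma adjusted p = 0.269). In both genes control replicate 5 fell among the exposed libraries. The most negative log2 fold changes were those of RPL37 (-1.29), RPL29 (-1.11) and RPL23, and the most positive those of RPL7A (0.54), RPS23 of the decoding centre (0.18) and RPL34 (0.01), none of which passed the test.

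The genes with the highest levels also did not pass. RPLP0 had 518, 436, 450, 371 and 224 FPKM in the control libraries and 295, 323, 339, 379 and 227 at 1 µM, a log2 fold change of -0.32 (SE 0.27, limma adjusted p = 0.591). The log2 fold change was -0.34 (SE 0.28) for RPL3, -0.48 (SE 0.27) for RPL5, -0.71 (SE 0.40) for RPL11 and -0.13 (SE 0.28) for RPL13A. RPS6, the substrate of S6 kinase, had 150, 130, 124, 135 and 83.7 FPKM in the control and 125, 85.8, 110, 132 and 63.0 FPKM at 1 µM, with a log2 fold change of -0.29 (SE 0.26). The median log2 fold change was -0.49 over the 46 large-subunit genes and -0.36 over the 31 small-subunit genes, and 44 and 30 of them were below 0.

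PCB 126 1 µM replicate 1 stood apart. In it 33 of the 77 genes had their lowest value of all 40 libraries, and 34 were more than 2-fold below the mean of the other 4 libraries of the group on the log2(FPKM + 1) scale. The median over 9732 genes was also lowest in this library, 2.34 against a median of 3.19 over the 40 libraries (log2 scale). The same 2 counts over all genes are not given here, so they do not set the ribosomal protein genes apart. RPL29, a basic large-subunit protein, was at 1.00 FPKM there and at 94.7 to 149 FPKM in the other 4. RPS27 was at 3.25 against 27.9 to 78.1 FPKM, and RPS15A at 6.28 against 57.1 to 127 FPKM. The direction was not shared by all, as RPLP1 reached its highest value of the 40 libraries there, 216 FPKM. The 33 genes whose main transcript is shorter than 700 bases had a median difference of -1.21 to the other 4 libraries, and the remaining 44 one of -0.70, on the log2 scale. Only 75785 transcripts were above 0 in it. Without this library, 71 of 77 log2 fold changes at 1 µM were below 0, the median was -0.31 against -0.11 over all genes, and 1 gene had an unadjusted p under 0.05 instead of 9. Without control replicate 5, the lowest control library, the median was -0.65, 38 genes had an unadjusted p under 0.05 and 1 (RPL23) passed the adjusted threshold. The counts over all genes without that library are not given here, so these do not set the ribosomal protein genes apart.

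At 10 nM, 0 of 77 genes passed (0.205% of all genes did), 2 had an unadjusted p under 0.05, and the plain model called 0. The median log2 fold change was -0.33 against -0.21 over all genes, and 74 of 77 were below 0 (96.1%, against 83.3% of all genes). Not one gene lay wholly below the control libraries, when 0.246% of all genes did. RPL14, a large-subunit protein, had the smallest p, with 126, 169, 80.3, 63.6 and 82.4 FPKM in the control and 67.9, 78.3, 24.02, 69.1 and 40.5 at 10 nM. Its log2 fold change was -0.91 (SE 0.34, limma adjusted p = 0.683), and it was lower than the control of the same run in 4 of 5 runs. RPL10, which joins the large subunit last and is needed for subunit joining, had a log2 fold change of -0.69 (SE 0.32, limma adjusted p = 0.865). Replicates 3 and 5 were far below the other 3 libraries of this group, with library medians of 6.22 and 6.33 against 7.08 to 7.38.

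At 100 pM, 0 of 77 genes passed, as did 0% of all genes, 1 had an unadjusted p under 0.05, and the plain model called 0. The median log2 fold change was 0.11 against 0.07 over all genes, and 18 of 77 were below 0. The gene with the smallest p was RPL4, part of the wall of the peptide exit tunnel. It had 140, 109, 32.4, 10.5 and 17.2 FPKM in the control and 141, 154, 181, 152 and 79.5 FPKM at 100 pM, higher in 5 of 5 runs but with overlap. Its log2 fold change of 1.76 (SE 0.73, limma adjusted p = 1) was 0.69 when all transcripts of its locus were summed. A limma F test for any difference across the 4 PCB 126 and control groups called 0 of 77 genes (1.39% of all genes), with 4 at an unadjusted p under 0.05. One across all 8 groups also called 0 (2.3% of all genes), with 0 at an unadjusted p under 0.05. The 3 comparisons share their 5 control libraries.

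Glyphosate and Roundup gave no call among the ribosomal protein genes or among all genes. Against the control, 0 of 77 genes passed limma's test at any of the 3 glyphosate concentrations or with Roundup, 0% of 9533 genes did in each, and the plain model called 0 of the 77. At an unadjusted p under 0.05 there was 1 ribosomal protein gene at 10 µg/L glyphosate and 0 in the other comparisons. The median log2 fold changes of the 77 genes followed those of all genes closely, at -0.06 against -0.04, 0.16 against 0.14 and -0.03 against -0.01 for the 3 glyphosate concentrations, and -0.19 against -0.18 for Roundup. For Roundup 70 of 77 were below 0 (90.9%), and so were 86.0% of all genes. The direction for Roundup depended on the scaling: with libraries scaled to the 75th percentile the median was 0.02 (all genes 0.01) and 24 of 77 were below 0, and for 0.1 g/L glyphosate it was 0.15 (all genes 0.14). The F test over the herbicide groups and control called 0 of 77 (0% of all genes), with 1 at an unadjusted p under 0.05.

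**Figure D3:**
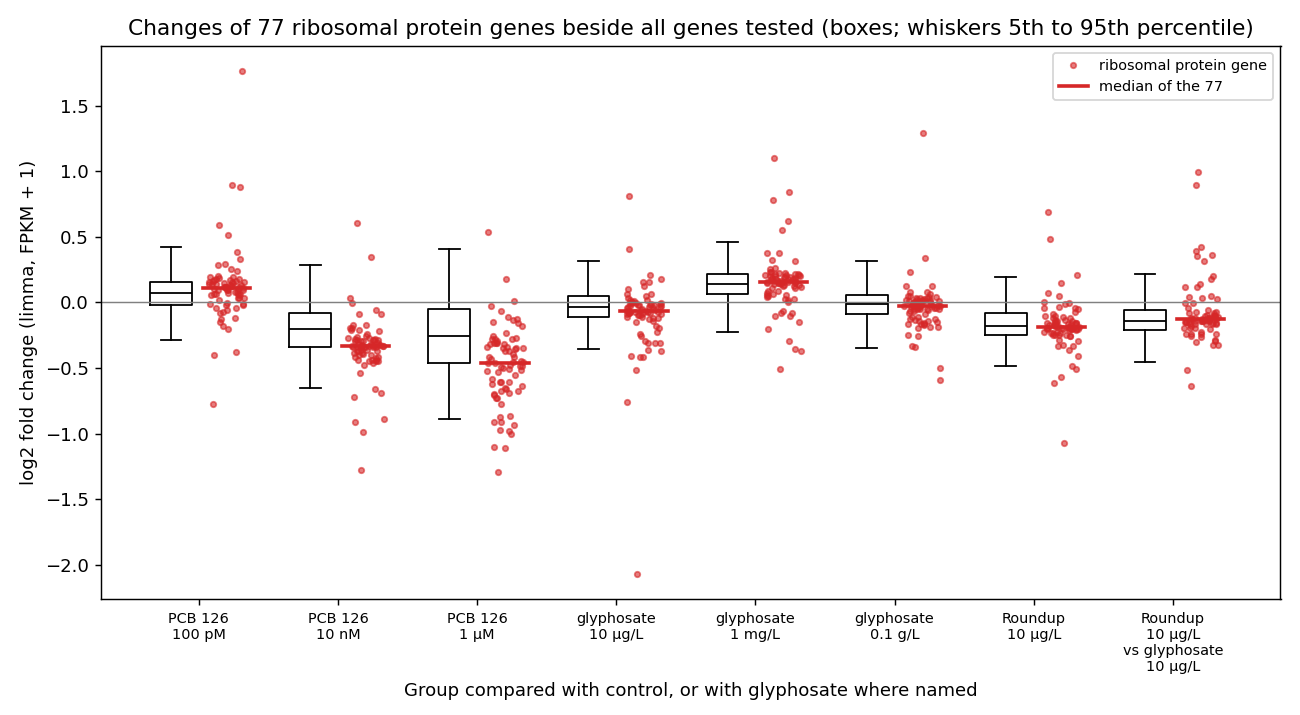
Log2 fold changes of the 77 genes (points, with their median as a line) beside those of all genes tested (boxes show quartiles, whiskers the 5th and 95th percentile) for each group against control, and for Roundup against glyphosate. The ribosomal protein median lies below that of all genes at 10 nM (-0.33 against -0.21) and 1 µM PCB 126 (-0.46 against -0.26), and next to it in the herbicide comparisons. The log2(FPKM + 1) scale understates the changes of low genes, which weighs more on the boxes than on the points.

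Roundup and glyphosate were compared at the 1 dose they share, 10 µg/L. There 0 of 77 ribosomal protein genes passed limma's test, as did 0% of all genes, 0 had an unadjusted p under 0.05, and the plain model called 0. The median log2 fold change of Roundup against glyphosate was -0.13 for the 77 genes and -0.14 for all genes, and the median 95% interval of a gene ran from -0.74 to 0.47, but a missed threshold does not show that the products act alike. RPLP0 had 620, 482, 328, 285 and 188 FPKM with Roundup and 589, 480, 263, 447 and 210 FPKM with glyphosate, in run order. In both groups the first 2 runs were high and the 5th was low.

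RPL37, a zinc-binding protein of the large subunit, had the largest log2 fold change of the 77 genes in any of the 8 comparisons. Its FPKM were 89.9, 35.4, 22.1, 6.29 and 38.6 in the control and 3.86, 5.33, 14.1, 4.89 and 5.16 at 10 µg/L glyphosate. It was lower in 5 of 5 runs, and the groups overlapped because control replicate 4 (6.29) lay below glyphosate replicate 3 (14.1). The log2 fold change was -2.07 (SE 0.53), with an unadjusted 2-sided exact permutation p of 0.0159 and a limma adjusted p of 1. RPL37 was picked from these same libraries, and by the permutation test 1 of the 77 genes was under 0.05, so that p is no separate support. At 1 mg/L and 0.1 g/L the log2 fold change was -0.35 and -0.59 (SE 0.53 each), and with Roundup -1.07. Roundup against glyphosate gave 1.00 (SE 0.53, limma adjusted p = 0.974). The named RPL37 transcripts made up 62.7% of the FPKM of their assembled locus, and summed over the locus the change at 10 µg/L was -0.60.

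The tables hold transcripts assembled from the reads beside the annotated ones, and the split between them moved with the values of several ribosomal protein genes. In 25 genes the named transcripts made up the whole of their assembled locus, and in 14 they made up less than 80% of its FPKM. Named RPS6 accounted for 41.3% of its locus: its 5 named transcripts summed to 121 ± 28.9 FPKM (SD, n = 40), while 1 unnamed transcript of 5 exons held 167 ± 64.7 FPKM. Its r with the median of the other ribosomal protein genes was 0.72 by name and 0.97 by locus. The same held for RPL6 (0.62 by name, 0.92 by locus), RPS2 (0.56 and 0.88), RPL7A (0.51 and 0.80), RPL34 (0.25 and 0.72), RPL4 (0.21 and 0.65) and RPL17 (0.05 and 0.68), a further protein of the exit tunnel. In all, the locus had the higher r by more than 0.1 in 13 genes, and the number of genes with r of at least 0.8 went from 52 to 61. Over the 40 libraries the named transcripts of RPL4 ranged from 10.2 to 202 FPKM and an unnamed transcript of 12 exons from 1.78 to 85.4 FPKM. RPL29 and RPS27A did not gain from it (0.56 and 0.54, 0.52 and 0.52).

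**Figure D4:**
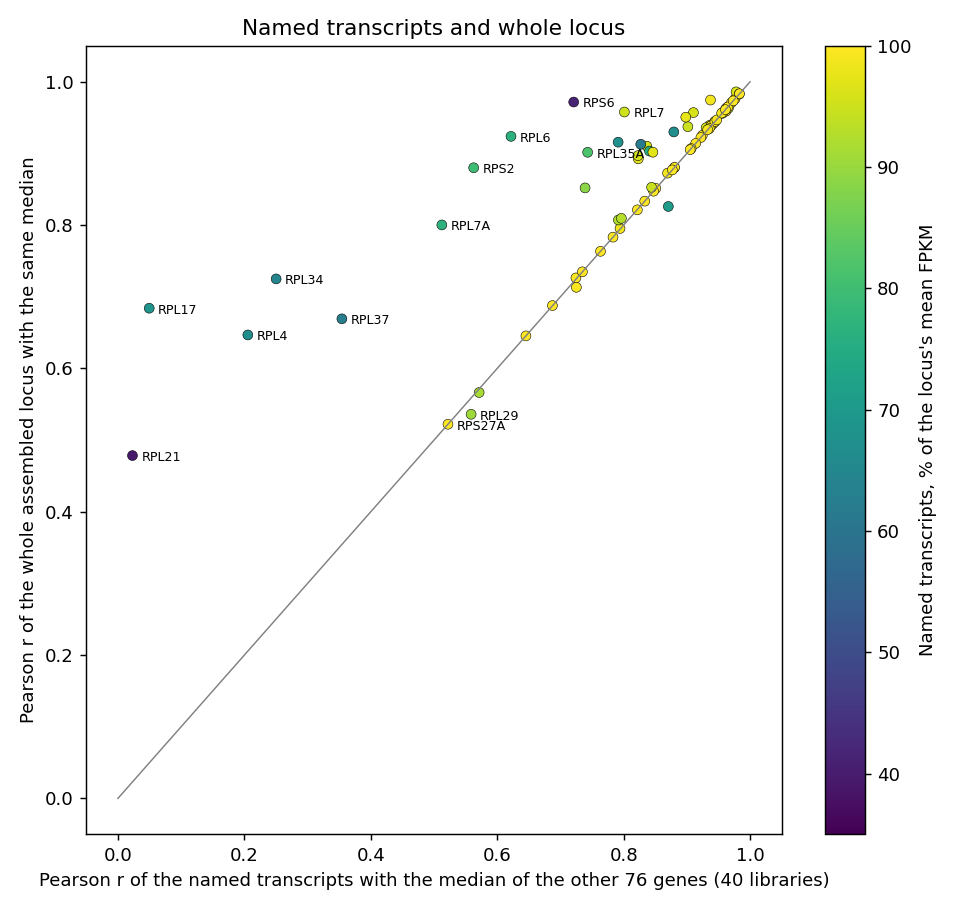
Pearson r with the median of the other 76 genes over 40 libraries, for the named transcripts of each gene (x axis) and for all transcripts of its assembled locus (y axis), coloured by the share of the locus's FPKM that carries the gene's name. Most genes lie on the diagonal, while RPS6 (0.72 by name, 0.97 by locus), RPL17, RPL4, RPL34 and RPL37 lie far above it.

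Processed pseudogenes carried a further part of the signal. Ribosomal protein mRNAs have been copied back into the genome many times, and reads from the intact gene can align to such copies. By name the 77 genes had 953 pseudogenes, whose FPKM summed to 1523 on average, against 11310 for the genes, and in 5 genes the pseudogenes outweighed the gene. RPL21 was listed at 0 in 24 of 40 libraries and never above 12.03 FPKM, while its 56 pseudogenes together held 71.4 to 214 FPKM. Gene and pseudogenes together had r = 0.90 with the median of the other 76 genes, against 0.02 for the gene alone. The others were RPL9 (106 FPKM for the gene and 147 for its pseudogenes), RPSA (79.7 and 108), RPS28 (45.7 and 82.7) and RPS26 (13.2 and 34.1). These 5 levels are therefore uncertain, and RPSA is among the genes described at 1 µM. In all, 22 genes had pseudogenes with more than 20 FPKM together, among them RPL7, with 171 FPKM for the gene and 110.5 for its 61 pseudogenes.

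Other genes of the translation machinery, taken from lists by function, mostly had negative medians at 1 µM PCB 126, where the median over all 9755 genes was -0.26 and 1.87% of them were called. For 5 elongation factors the median log2 fold change was -0.31 with 0 calls, and for 13 initiation factors and related TOP mRNAs -0.56 with 0 calls. For 26 ribosome biogenesis genes it was -0.14 with 0 calls, for 8 small nucleolar RNA host genes -0.22 with 0 calls, for 75 mitochondrial ribosomal protein genes -0.30 with 0 calls, and for 7 common reference genes -0.30 with 0 calls. Of 12 genes of mTORC1 and MYC control, 1 rose, DEPTOR, an inhibitor of mTOR, by 1.49 (SE 0.30, limma adjusted p = 0.00641), and their median was -0.05. Of 10 hepatocyte markers 2 fell and 0 rose, with a median of -0.86: TTR by 1.62 and FGB by 1.37 on the log2 scale (limma adjusted p of 0.00797 and 0.0259). The 3 biliary markers tested had a median of -0.87 with 0 calls, 11 mitochondrially encoded genes -0.70 with 0 calls, and 7 abundant structural and nuclear RNAs -0.17 with 0 calls. The mitochondrially encoded median was also negative in every herbicide group against control, from -0.60 to -1.09, and 0.11 at 100 pM PCB 126. Several of these genes, among them MT-CO2 and MT-ND4, had a median of 0 FPKM over 40 libraries, so this value is uncertain. CYP1A1, CYP1A2 and CYP1B1 all rose at 10 nM and 1 µM. Beyond these 3, no gene of any of these lists passed at 10 nM, and none at 100 pM or with the herbicides. Fewer cells of a type and less RNA per cell cannot be told apart in bulk libraries, and the part of a changed cell mixture in the ribosomal protein level was not tested.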

How the data were processed

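RNA sequencing had been done on rRNA-depleted, strand-specific libraries. The authors aligned reads with HISAT2 to GRCh38, used StringTie to assemble and quantify transcripts, and deposited their FPKM in a table for PCB 126 and a table for the herbicides. The same 5 control columns, with identical values, stand in both. Some deposited columns hold a few values below 0 (4 in the first table, 6 in the second), which FPKM cannot have, so that those columns were recorded as a score. The values below 0 were set to 0, and the columns were otherwise handled as FPKM like all others. FPKM hold no counts, read depth was not used here, and the 5 libraries per group limit the precision. FPKM were summed per gene name over 758 transcripts of the 77 genes, out of 234960 transcripts, of which 35782 had no gene name.

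Genes with a variance of FPKM above 1 entered limma (version 3.58.1 in R 4.3.3) on log2(FPKM + 1), separately per table (9755 and 9533 genes), with Benjamini-Hochberg adjustment over all of them and a threshold of 0.05. A fold change on this scale understates the change of low genes. Single genes were also compared by an exact permutation test over the 252 splits of 10 libraries, whose smallest 2-sided p is 0.00794. Groups came from the labels, which number no replicates, and replicates are in order of library number. The code was tested on simulated data. No 2 libraries had identical values.

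The 77 genes and the gene lists were chosen with earlier results of these data known. Named genes were 18 members of known roles, in each comparison the genes past the threshold and the 3 highest and 3 lowest fold changes, the 5 highest and lowest levels, the 3 largest and smallest spreads, and the 3 most alike other genes. Genes of the other lists were limited to 3 each by smallest p. Some genes that these rules name, and 1 list, are not reported here. RPL7, RPS27, RPS15A, RPL6, RPS2, RPL9 and RPS28 were named after their values were seen. Alternatives were a pseudocount of 0.1, other filters, scalings, models and summaries, and each library left out. Summaries and figures were made with Python 3.11.15, pandas 2.3.3 and matplotlib 3.10.9.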

Additional observations from a re-analysis of the deposited data

Results flagged for a closer look

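In 80 sets of 5 libraries (8 groups and 10 measures: the 2 library measures and 8 single genes) Dixon's test at the 95% level marked 4 libraries as far from the other 4 of their group, and chance marks about 1 in 20 sets. The ribosomal protein median of control replicate 5 was 6.50 on the log2 scale, with the others between 7.28 and 7.57. RPL37 was at 14.1 FPKM in glyphosate 10 µg/L replicate 3, with the others between 3.86 and 5.33 FPKM. RPL7 was at 254 FPKM in glyphosate 1 mg/L replicate 1, with the others between 197 and 210 FPKM. RPLP0 was at 330 FPKM in PCB 126 100 pM replicate 5, with the others between 460 and 494 FPKM.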

How the results depend on the processing

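No ribosomal protein gene passed in any comparison by the model described, and the count of calls depended on the setting at 1 µM PCB 126. It was 1 with 75th percentile scaling (RPL7) and with libraries scaled to 1 sum (RPL7), 3 with quantile normalization (RPL5, RPL7 and RPSA), and 6 with array weights (RPL13, RPL15, RPL23, RPL5, RPL7 and RPSA). When single libraries were left out it ranged from 0 to 1. With array weights the F test across PCB 126 groups called 2 genes, Roundup against control 29, Roundup against glyphosate 41 and the herbicide F test 51. The same weights called 3470, 4448 and 5527 of all 9533 genes in those herbicide comparisons, and the weight of Roundup replicate 3 was 30.4 when that of every other library in the table was at most 2.41. Range of the library median: 1.22 with 75th percentile scaling and 0.77 with quantile normalization, against 1.75. The following alternatives were chosen after seeing the data. Only libraries with at least 100000 transcripts above 0 gave 2 calls at 1 µM (RPL7 and RPSA). Without the 5th run there was no call, with a median log2 fold change of -0.56 at 1 µM. Scaling to the 75th percentile together with a replicate block gave 1 call at 1 µM (RPL7) and 2 in the PCB 126 F test (RPL14 and RPLP0). How many of all genes these settings called in the PCB 126 tests is not given here, so the counts do not set the ribosomal protein genes apart. The cause of these differences was not tested.

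The median log2 fold change at 1 µM stayed below 0 throughout, from -0.56 to -0.21 over the alternatives and from -0.65 to -0.31 with 1 library left out, and that at 10 nM from -0.39 to -0.08 and from -0.51 to -0.17. The other comparisons crossed 0 under some alternative, as Roundup against control did between -0.35 and 0.03. The replicate block (the 5 runs of library numbers) called 0 ribosomal protein genes and 357 genes in all at 1 µM, against 182. Libraries of the same run deviated together only weakly, with a median r of 0.07 over 80 pairs, 26 of them above 0.1, against -0.02 over 320 pairs of different runs, 11 of them above 0.1. The runs were to pair the samples only if every pair exceeded 0.1, so the main fit has no run term and comparisons within a run are descriptions. This strict rule does not show that the runs have no effect, and the main fit ignores any that they have.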
